A study of Homo sapiens with 12 samples.

Results

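The transcripts described here encode the vascular factors that podocytes can make or bind: the ligands VEGFA, VEGFB, VEGFC and PGF, the co-receptors NRP1 and NRP2, the angiopoietins ANGPT1 and ANGPT2, and the angiopoietin-like proteins ANGPTL2 and ANGPTL4. These 10 genes were taken by symbol from the 62656 rows of the count table, and each symbol matched 1 Ensembl identifier. The libraries came from a human podocyte line that carries a heat-sensitive SV40 large-T antigen. In all groups the cells had been differentiated for 12 days at 37 °C, the temperature that inactivates the antigen. It gave the stable Tet-On lines, 1 with pCW-eGFP (the GFP line, the control) and 1 with pCW-(FLAG-NLS-)YAP5SA (the YAP5SA line), an active form of the transcriptional co-activator YAP. Each line was left without doxycycline or was given 0.1 µg/ml for 24 hours, which makes 4 groups of 3 libraries: GFP without doxycycline, GFP with doxycycline, uninduced YAP5SA and induced YAP5SA. Whether a line was 1 clone is not given in the sources used here. The labels do not tell whether the 3 replicates of a group were separate cultures. The p-values therefore rest on the spread among libraries, part or all of which may be technical.

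In the glomerulus, podocytes are the main source of VEGFA, which reaches endothelial cells across the basement membrane and acts through the receptors KDR and FLT1. Neuropilins bind VEGF and class 3 semaphorins and work together with VEGF receptors and plexins. Angiopoietins signal through the receptor TEK, whereas the angiopoietin-like proteins do not: ANGPTL4 inhibits lipoprotein lipase and is a target of both hypoxia-inducible factors and PPARs.

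The libraries held 24477592 to 25993413 counts. YAP1 reads, which can come from the transgene as well as the cell's own gene, were at 1757, 1672 and 970 CPM in the induced libraries and between 173 and 375 CPM in the other 9 libraries. CPM is a count scaled to a common library size with TMM factors. Among the podocyte markers, ACTN4 (1621 CPM on average), SYNPO (467), TJP1 (453) and CD2AP (262) made up most of the sum, while the defining transcripts NPHS1 (nephrin) and WT1 had 18 and 71 reads over all 12 libraries. Among the 12 endothelial markers PECAM1, CLDN5, EMCN and KDR had 2, 2, 4 and 7 reads in all, whereas EGFL7 had 9795, ROBO4 442 and VWF 290. The summed podocyte list ranged from 2754 to 2914 CPM in GFP without doxycycline, 2758 to 2865 with it, 2854 to 2975 in uninduced and 3002 to 3192 in induced YAP5SA. The parietal epithelial list had a higher sum, at 4370 to 4540, 4373 to 4501, 4576 to 4833 and 4283 to 4480 CPM in the same order, so induced libraries lay below all uninduced ones. With induction 1 of 10 tested podocyte markers rose and 2 fell, and 1 of 9 parietal markers rose and 3 fell (CDH6, KRT19 and CD44). Of 5 tested endothelial markers 2 rose (VWF and TEK). TEK, with 126 reads, may have had enough reads for the test only in the induced libraries. Of 4 mesangial markers 2 rose (PDGFRB and GATA3). None of 2 tubule or 2 leukocyte markers passed by edgeR, with 1 and 0 at an unadjusted p under 0.05. The part of these markers in the results was not tested. In bulk RNA, fewer cells of a kind and less RNA per cell cannot be told apart.

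Of the 10 genes, 8 had enough reads to be tested, and induction of YAP5SA lowered 4 of them and raised none. The fall was largest for ANGPTL4, followed by VEGFC, NRP1 and NRP2, while VEGFA, VEGFB, PGF and ANGPTL2 had lower means that did not pass the test. A gene was called where the edgeR quasi-likelihood test gave a Benjamini-Hochberg adjusted p below 0.05 over all 17470 genes tested. By that rule 19.1% of all genes were called on induction, 9.28% as lower and 9.83% as higher. The median log2 fold change was -0.58 for the 8 genes and -0.00 for all genes. In the GFP line none of the 8 was called with doxycycline (0% of all genes called), and none had an unadjusted p under 0.05. DESeq2 and limma-voom called none of the 8 either. The direct test of the difference between the doxycycline effects of the lines passed for ANGPTL4 alone of the 8, against 6.88% of all genes. The NRP2 call on induction was lost in 6 of 16 alternatives.

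VEGFA (ENSG00000112715, chromosome 6, 43770184 to 43786487 on the plus strand of GRCh38, 4 exon blocks) is the principal VEGF of podocytes. Its 3 libraries, in the order of replicates 1, 2 and 3, held 219, 266 and 173 CPM in GFP without doxycycline and 215, 263 and 170 CPM with it. In the YAP5SA line they held 217, 273 and 168 CPM uninduced and 166, 188 and 135 CPM induced. Within each group replicate 2 was highest and replicate 3 lowest, and the uninduced and induced libraries overlapped. The means were 219.5 ± 52.7 CPM uninduced and 162.7 ± 26.8 CPM induced (SD, n = 3), a log2 fold change of -0.43 ± 0.23 (SE) that did not pass (edgeR adjusted p = 0.246; 95% interval -0.96 to 0.10). The VEGFA fall passed with the replicate number as a block over 12 libraries (edgeR adjusted p = 4.50e-07) or in the 6 YAP5SA libraries. However, the numbers did not pair all of the YAP5SA libraries. Between these groups replicate 1 correlated at -0.104, whereas replicates 2 and 3 correlated at 0.312 and 0.292. Without doxycycline the lines differed in VEGFA by 0.00 ± 0.23 on the log2 scale.

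**Figure D1:**
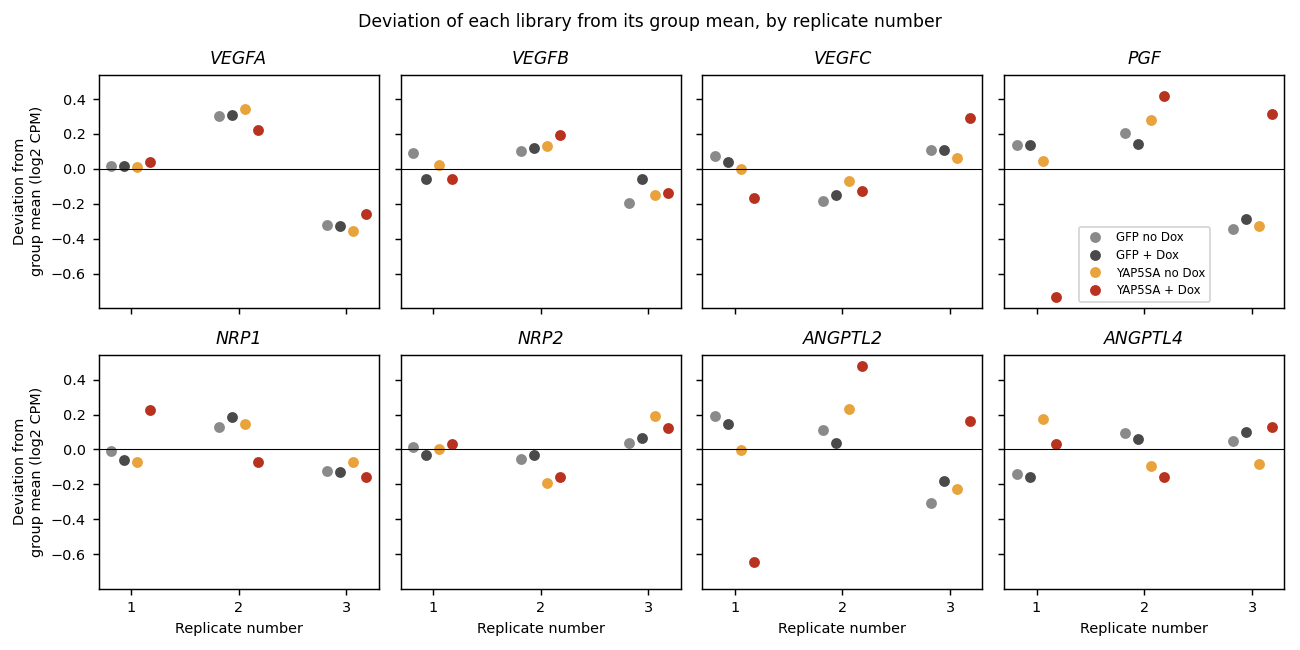
Deviation of log2 CPM from the group mean for each of the 8 tested genes, by replicate number; points are the 4 groups. VEGFA lies close together within each number, near 0.02, 0.29 and -0.31 for numbers 1, 2 and 3, while the 4 points of ANGPTL4 spread within each number.

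VEGFB (ENSG00000173511, chromosome 11, 64234538 to 64238793, plus strand) and PGF (ENSG00000119630, chromosome 14, 74941834 to 74955784, minus strand) encode ligands that bind FLT1 but not KDR. VEGFB was at 25.5, 27.5 and 22.7 CPM uninduced and 20.2, 24.1 and 19.2 CPM induced. These libraries overlapped, and the log2 fold change of -0.25 ± 0.11 did not pass (edgeR adjusted p = 0.120). It passed when induced replicate 2 was left out (-0.35, adjusted p = 0.0443). The VEGFB fall also passed with the replicate number as a block over 12 libraries (edgeR adjusted p = 0.00509) or in the 6 YAP5SA libraries. As for VEGFA, the numbers did not pair all of the YAP5SA libraries. PGF was rare, with 6 to 25 reads per library. Its levels were 0.671, 0.794 and 0.514 CPM uninduced and 0.237, 0.552 and 0.513 CPM induced, the low value being that of induced replicate 1. The PGF log2 fold change of -0.60 ± 0.32 did not pass (adjusted p = 0.225; 95% interval -1.29 to 0.09).

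VEGFC (ENSG00000150630, chromosome 4, 176683538 to 176792727, minus strand, 8 exon blocks) encodes a ligand of FLT4 that drives the growth of lymphatic vessels. Uninduced YAP5SA libraries held 40.8, 38.9 and 42.6 CPM, close to the 35.8 to 43.9 CPM of the 6 GFP libraries. Induced libraries held 23.7, 24.4 and 32.6 CPM, all below every other library (16.8% of all genes had every induced library below every uninduced one), and as in each of the other 3 groups replicate 3 was the highest. VEGFC fell by 0.60 ± 0.12 on the log2 scale (SE; edgeR adjusted p = 0.00411), from 40.8 ± 1.86 to 26.9 ± 4.96 CPM (SD, n = 3). In the GFP line the means were 40.8 ± 4.39 CPM without and 39.9 ± 3.63 CPM with doxycycline. The difference between the doxycycline effects of the lines, -0.57 ± 0.17, did not pass (adjusted p = 0.0640). It passed with DESeq2 (adjusted p = 0.0163), with upper-quartile scaling (0.0468) and without induced replicate 3 (-0.73, adjusted p = 0.00448).

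Both neuropilin transcripts fell on induction. NRP2 was also lower in the YAP5SA line without doxycycline, where NRP1 missed the threshold. NRP1 (ENSG00000099250, chromosome 10, 33177492 to 33336262, minus strand, 23 exon blocks) was at 155, 171 and 143 CPM in GFP without doxycycline and 145, 172 and 138 CPM with it. It was at 114, 132 and 114 CPM in uninduced and 93.8, 76.5 and 72.1 CPM in induced YAP5SA. These 3 levels did not overlap: every GFP library lay above every uninduced library, and every uninduced library above every induced one. NRP1 fell by 0.57 ± 0.11 on the log2 scale with induction (SE; edgeR adjusted p = 0.00537). The NRP1 difference between the uninduced lines, -0.38 ± 0.11, did not pass (adjusted p = 0.0622), although it did with DESeq2 (0.00750) and with those groups compared alone (0.0238). Between the lines, 29.5% of all genes had groups that did not overlap. The difference between the 2 doxycycline effects of NRP1 was -0.52 ± 0.16 and did not pass (adjusted p = 0.0801), but passed with DESeq2 (0.0135) and without induced replicate 1 (-0.64, adjusted p = 0.0267).

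NRP2 (ENSG00000118257, chromosome 2, 205681990 to 205798133, plus strand, 24 exon blocks), encodes the neuropilin that binds VEGFC. Its levels were 440, 419 and 446 CPM in GFP without doxycycline, and 429, 430 and 459 CPM with it. They were 344, 301 and 393 CPM in uninduced and 285, 250 and 304 CPM in induced YAP5SA. Every GFP library was above every YAP5SA library, while the uninduced and induced YAP5SA libraries overlapped. NRP2 was lower in the YAP5SA line without doxycycline by -0.33 ± 0.09 on the log2 scale (SE; edgeR adjusted p = 0.0394) and fell by 0.31 ± 0.09 with induction (adjusted p = 0.0301).

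Both NRP2 calls were close to the threshold. The induction call was lost without uninduced replicate 1 (-0.31, adjusted p = 0.0794) or 3 (-0.20, 0.105) and without induced replicate 1 (-0.32, 0.0711) or 2 (-0.23, 0.110). The NRP2 call between uninduced lines was lost without GFP replicate 1 (-0.32, adjusted p = 0.119), 2 (-0.35, 0.0844) or 3 (-0.31, 0.0897) and without uninduced YAP5SA replicate 1 (-0.33, 0.127) or 2 (-0.24, 0.0952). Both calls were also lost with no filter on low counts (NRP2 -0.30, adjusted p = 0.157, and -0.34, 0.167) and with the groups compared alone (0.100 and 0.0589). The difference between the doxycycline effects on NRP2 was -0.32 ± 0.13 (adjusted p = 0.161) and passed without uninduced replicate 2 (-0.41, adjusted p = 0.0404).

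The angiopoietins were near the detection limit. ANGPT1 (ENSG00000154188, chromosome 8, 107249482 to 107498055, minus strand), the TEK agonist, had 4, 5 and 5 reads in GFP without doxycycline and 6, 4 and 6 with it. It had 11, 12 and 4 reads in uninduced and 3, 5 and 5 in induced YAP5SA. ANGPT1 was too rare for the filter and was not tested with all 12 libraries. ANGPT2 (ENSG00000091879, chromosome 8, 6499651 to 6563409, minus strand), which can antagonise TEK, had 3 reads in all, 1 in uninduced replicate 1 and 1 each in induced replicates 1 and 2. Its 0 reads in the 3 GFP libraries without doxycycline allow a level of up to 0.0395 CPM (3 counts over the group; counting error only). The ANGPT2 gene lies on the other strand of MCPH1, with 78 exon bases in common, and the strand setting of the counting is not given in the sources used here. Antisense genes share 561 exon bases with NRP1 (4.87% of its exons), 188 with VEGFA and 147 with NRP2, and reads of the 2 strands cannot be told apart there.

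ANGPTL4 (ENSG00000167772, chromosome 19, 8363289 to 8374373, plus strand, 8 exon blocks) had the largest difference between the lines in its doxycycline effect among the 8 tested genes. In the GFP line it was at 53.1, 62.4 and 60.7 CPM without and 50.4, 58.7 and 60.4 CPM with doxycycline. Uninduced YAP5SA libraries held 96.0, 79.7 and 80.4 CPM, above all GFP libraries, and induced libraries held 46.4, 40.7 and 49.7 CPM, below all of them. ANGPTL4 thus stood above the GFP line before induction and below it afterwards. The lower level, with doxycycline in both lines (-0.31 ± 0.10, edgeR adjusted p = 0.0277), was a call lost in 6 of 15 alternatives. ANGPTL4 was higher in the uninduced YAP5SA line by 0.54 ± 0.10 on the log2 scale (SE; edgeR adjusted p = 0.00601), a comparison in which 8.65% of all genes were called, 6.04% as higher and 2.61% as lower. It fell by 0.91 ± 0.10 with induction (adjusted p = 7.87e-05), from 85.4 ± 9.20 to 45.6 ± 4.56 CPM (SD, n = 3). ANGPTL4 was also the 1 gene of the 8 for which the doxycycline effect differed between the lines, by -0.85 ± 0.14 (adjusted p = 0.00413). That difference was called in 6.88% of all genes, and 3.25% of all genes were lower both on induction and in this difference. The ANGPTL4 calls between the uninduced lines, on induction and in the difference of effects held under every alternative run.

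ANGPTL2 (ENSG00000136859, chromosome 9, 127087332 to 127122883, minus strand) encodes a secreted protein linked to inflammation. It was at 12.2, 11.5 and 8.61 CPM in GFP without doxycycline and 11.6, 10.8 and 9.27 CPM with it. The YAP5SA libraries held 9.55, 11.3 and 8.18 CPM uninduced and 3.76, 8.20 and 6.59 CPM induced. Induced replicate 1 was the lowest of the 12 libraries, and induced replicate 2 just overlapped the uninduced group. The log2 fold change of ANGPTL2 was -0.64 ± 0.24 (SE; edgeR adjusted p = 0.0847). It passed with DESeq2 (adjusted p = 0.0293) and without induced replicate 2 (-0.90, adjusted p = 0.0306). ANGPTL2 lies within RALGPS1 on the other strand and shares no exon base with it.

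**Figure D2:**
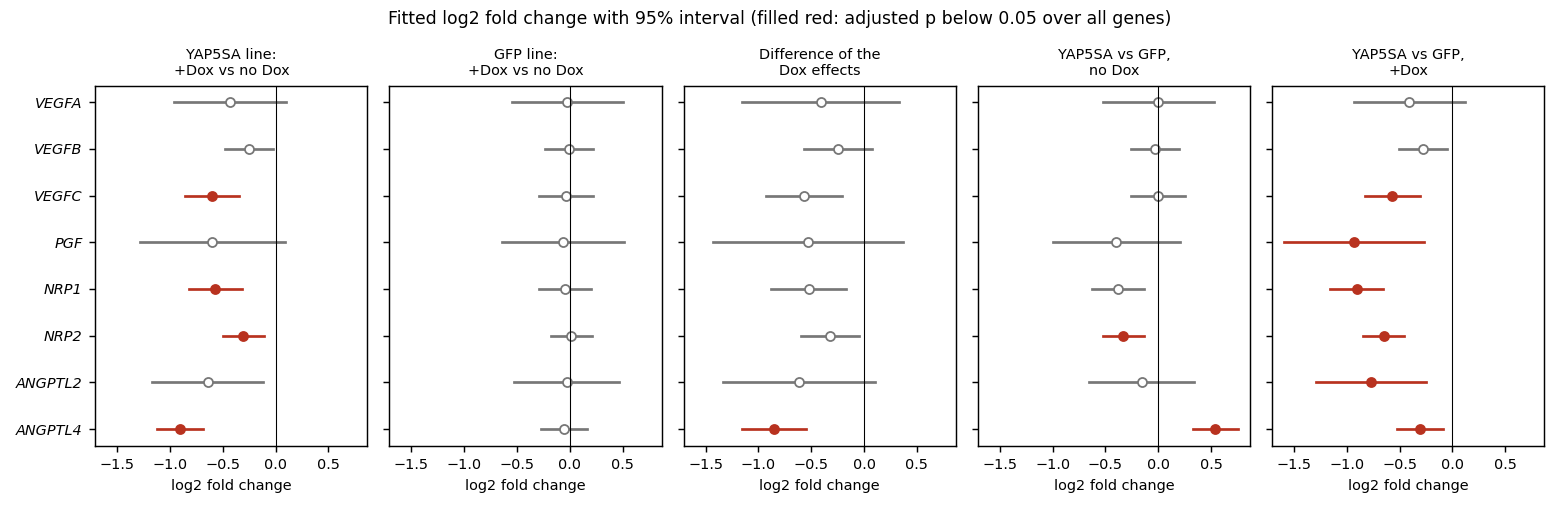
Log2 fold change of the 8 tested genes in each comparison, with 95% intervals; filled points passed at an adjusted p below 0.05. The GFP values lie between -0.06 and 0.02, while all 8 induction values lie below 0, from -0.25 for VEGFB to -0.91 for ANGPTL4.

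With doxycycline in both lines, 6 of the 8 genes were lower in the YAP5SA line and none was higher, in a comparison that called 38.3% of all genes, 18.4% as lower. This comparison shares the induced libraries with the induction comparison. In it 48.9% of all genes had groups that did not overlap. NRP1 differed by -0.91 ± 0.11 on the log2 scale (SE; edgeR adjusted p = 1.02e-04), NRP2 by -0.65 ± 0.09 (1.25e-04) and VEGFC by -0.57 ± 0.12 (0.00257). PGF (-0.93 ± 0.31, adjusted p = 0.0287), ANGPTL2 (-0.77 ± 0.24, 0.0240) and ANGPTL4 (-0.31 ± 0.10, 0.0277) also passed. VEGFA (-0.41 ± 0.23, adjusted p = 0.206) and VEGFB (-0.28 ± 0.11, 0.0535) did not.

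The last 3 of those calls each depended on single libraries. PGF was lost without GFP replicate 1 (-0.85, adjusted p = 0.0901) or 2 (-0.85, 0.0858) or induced replicate 1 (-0.63, 0.120). ANGPTL2 was lost without GFP replicate 1 (-0.69, adjusted p = 0.0802) or 2 (-0.75, 0.0655). ANGPTL4 was lost without GFP replicate 2 (-0.27, adjusted p = 0.0931) or 3 (-0.25, 0.101) or induced replicate 1 (-0.32, 0.0630) or 2 (-0.23, 0.111). ANGPTL4 (adjusted p = 0.0988) and ANGPTL2 (0.103) were also lost with no filter on low counts. Conversely VEGFB passed without induced replicate 2 (-0.38, adjusted p = 0.0161), with upper-quartile scaling (0.0472), with no filter (0.0417) and with DESeq2 (0.0490). DESeq2 did not call PGF (adjusted p = 0.0773).

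Levels were compared between genes per length, as RPKM over all exons joined. In GFP without doxycycline NRP2 was highest, at 31.3 ± 1.01 RPKM (SD, n = 3), followed by ANGPTL4 at 23.7 ± 2.0 RPKM, with libraries apart. VEGFC (16.9 ± 1.82 RPKM), VEGFB (16.7 ± 1.90), VEGFA (15.2 ± 3.21) and NRP1 (13.6 ± 1.20) came next, and each of these overlapped its neighbour in the order. ANGPTL2 was at 2.77 ± 0.489 RPKM, PGF at 0.146 ± 0.0290 RPKM and ANGPT1 at 0.0259 RPKM. In uninduced YAP5SA ANGPTL4 led, at 34.4 ± 3.71 RPKM, with NRP2 at 24.9 ± 3.34 RPKM, and on induction their libraries overlapped (NRP2 20.1 ± 1.98, ANGPTL4 18.4 ± 1.84 RPKM). The place of VEGFA depends on the length used, as its joined exons span 14431 bases. With the longest coding transcript of 3535 bases it moved from rank 5 to rank 2 in GFP without doxycycline. The lead of ANGPTL4 in uninduced YAP5SA also depends on the length. With the longest coding transcript, ANGPTL4 was at rank 3 there with 45.4 CPM per kilobase, below VEGFA (62.1) and NRP2 (51.9).

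**Figure D3:**
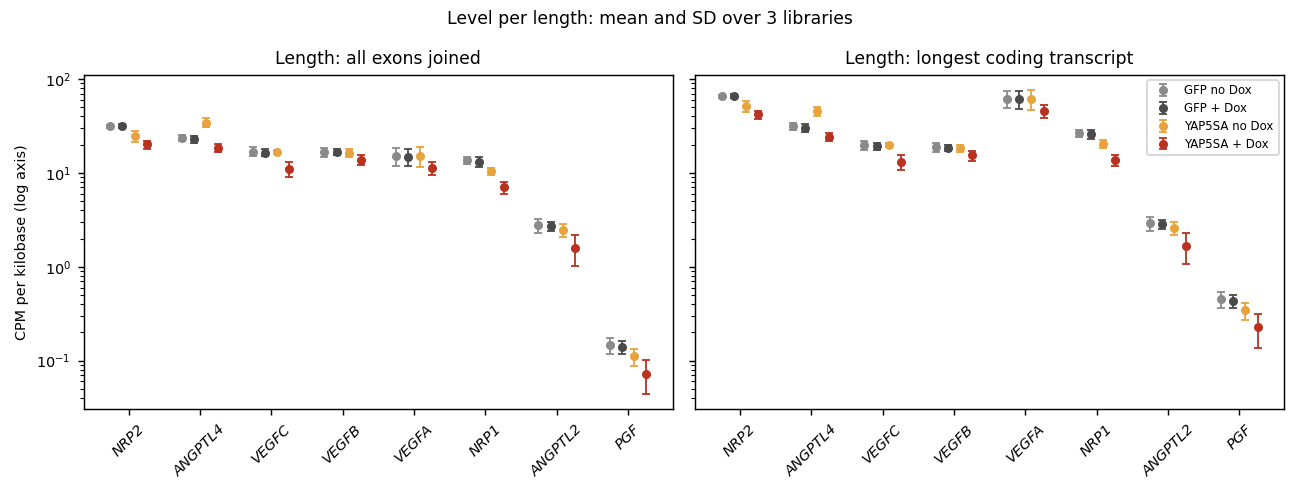
Level per length of the 8 tested genes in the 4 groups (CPM per kilobase, log axis), with all exons joined on the left and the longest coding transcript on the right; points are means over 3 libraries and bars the SD. On the left NRP2 and ANGPTL4 are highest in each group, and VEGFC, VEGFB, VEGFA and NRP1 lie between 7.01 and 16.9 RPKM; on the right VEGFA stands near NRP2.

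PGF was the only one of the 8 genes whose group means of log2 CPM spanned at least 1. The 3 genes most like it across the 12 libraries, by the root mean square difference of centred log2 CPM among 13064 genes, were ANGPTL2 (0.129), MC1R (0.130) and SMAD6 (0.135). PGF rests on few reads, so this likeness is a description.

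Start-site sequence was available for 6 of the 10 genes in RefSeq windows of GRCh38.p14, each from 250 bases before to 50 after a start site. The 250 bases before the start site of ANGPTL4 (chr19:8363905-8364154, plus strand), VEGFC (chr4:176792923-176793172, minus strand) and NRP2 (chr2:205682251-205682500, plus strand) are shown because these 3 transcripts fell with induction; capitals mark the 1 motif match found.
ANGPTL4: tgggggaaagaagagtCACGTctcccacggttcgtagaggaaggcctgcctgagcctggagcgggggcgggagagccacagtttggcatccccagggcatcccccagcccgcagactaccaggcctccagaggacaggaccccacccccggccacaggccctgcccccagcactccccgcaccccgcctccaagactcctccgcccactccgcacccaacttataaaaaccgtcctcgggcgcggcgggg
VEGFC: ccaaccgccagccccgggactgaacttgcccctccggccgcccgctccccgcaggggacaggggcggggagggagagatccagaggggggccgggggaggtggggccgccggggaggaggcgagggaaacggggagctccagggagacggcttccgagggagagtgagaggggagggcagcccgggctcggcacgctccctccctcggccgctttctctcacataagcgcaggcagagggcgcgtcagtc
NRP2: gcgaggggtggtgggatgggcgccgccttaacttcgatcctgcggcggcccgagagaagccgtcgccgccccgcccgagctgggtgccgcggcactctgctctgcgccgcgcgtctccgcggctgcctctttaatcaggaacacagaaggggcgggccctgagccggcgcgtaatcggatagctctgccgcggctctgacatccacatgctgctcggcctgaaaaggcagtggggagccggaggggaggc
Windows were searched on both strands for the TEAD motif, spelled GGAATG, for the core of the hypoxia response element, spelled ACGTG, and for the AP-1 motif, spelled TGANTCA. Of the windows of these 6 genes, that of ANGPTL4 alone held a match, the reverse complement of the hypoxia core with its first base at -234, and it overlapped no other motif. Among 35116 windows of all genes, 21.4% held the hypoxia core, 14% the TEAD motif and 7.71% the AP-1 motif. No match says only that these letters are not in the window.

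The receptors that these ligands act on were rare, and 3 of the 5 could be tested. TEK, with 126 reads in all 12 libraries, rose by 1.01 ± 0.24 on the log2 scale with induction (SE; edgeR adjusted p = 0.0135), and in the GFP line its value with doxycycline was 0.78 ± 0.33. The difference between these effects did not pass (0.23 ± 0.43, adjusted p = 0.872), and the TEK call was lost without uninduced replicate 1 (0.85, adjusted p = 0.0874) or induced replicate 1 (0.94, adjusted p = 0.0586). limma-voom called TEK, and DESeq2 gave it no adjusted p. TEK was highest in the induced libraries. With so few reads it may have passed the filter through those libraries alone, so its rise is no firm result. FLT1, with 122 reads, had 0.96 ± 0.41 (adjusted p = 0.121), and FLT4, the VEGFC receptor, -0.27 ± 0.16 (adjusted p = 0.279). KDR and TIE1, with 7 and 94 reads, were not tested. Of 8 other VEGF and angiopoietin-like ligands 2 could be tested and none passed by edgeR, DESeq2 or limma-voom, with 1 of them at an unadjusted p under 0.05.

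Class 3 semaphorins compete with VEGF for neuropilins, and plexins are their signalling partners. Of these 12 genes, all tested, 1 rose and 1 fell on induction, shares near the 9.83% and 9.28% of all genes. SEMA3D rose by 0.79 ± 0.21 on the log2 scale (SE; edgeR adjusted p = 0.0208) and PLXNA3 fell by 0.28 ± 0.04 (adjusted p = 5.96e-04). SEMA3D was lost without uninduced replicate 2 (0.68, adjusted p = 0.0736) or induced replicate 1 (0.68, 0.0796) and with no filter (0.0780). DESeq2 called 4 of the 12, adding SEMA3F and PLXNA4. The median of the list was -0.02, near that of all genes.

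VEGFC is cleaved to its active form by ADAMTS3 with the cofactor CCBE1, after furin-type proteases. Of 6 tested genes of that process none passed on induction by edgeR or limma-voom, while 3 had an unadjusted p under 0.05 and DESeq2 called 1 (ADAMTS3, higher). Without doxycycline 5 of the 6 differed between the lines, against 8.65% of all genes (6.04% higher, 2.61% lower), and they are named after their values were seen. CCBE1 (0.54 ± 0.08 on the log2 scale), PCSK7 (0.25 ± 0.05) and FURIN (0.22 ± 0.05) were higher in the YAP5SA line, and ADAMTS3 (-0.66 ± 0.11) and PCSK5 (-0.43 ± 0.10) were lower. FURIN was lost when GFP replicate 1 or 2 or uninduced YAP5SA replicate 1 was left out (0.20 to 0.24 over the alternatives). PCSK5 was lost without GFP replicate 1 or 2 or any 1 of the uninduced YAP5SA replicates (-0.54 to -0.31 over the alternatives). Of 6 genes around the lipases that ANGPTL4 inhibits, LIPG (endothelial lipase) alone passed on induction, at -0.45 ± 0.13 (SE; edgeR adjusted p = 0.0378). The LIPG call was lost in 5 of the 6 fits that left out a YAP5SA library (-0.50 to -0.33).

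Oxygen-sensing genes changed in both directions. HIF1A, the oxygen-regulated alpha subunit best known for glycolytic targets, fell by 0.48 ± 0.06 on the log2 scale (SE; edgeR adjusted p = 9.17e-05). EPAS1, which encodes the related subunit HIF-2 alpha, rose by 0.46 ± 0.06 (adjusted p = 1.30e-04). EPAS1 was also higher in the YAP5SA line without doxycycline, by 0.64 ± 0.06, and HIF1A lower, by -0.20 ± 0.06, a call lost in 6 of 15 alternatives. VHL, which targets both for degradation, fell by 0.25 ± 0.04 (adjusted p = 0.00162). The prolyl hydroxylase EGLN1 fell by 0.22 ± 0.07 (adjusted p = 0.0475), a call lost in 10 of 16 alternatives. In all, 1 of the 8 genes rose and 3 fell, against 9.83% and 9.28% of all genes.

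Hypoxia targets other than the 10 genes were mostly lower after induction: of 13 tested, 9 fell and 1 rose, against 9.28% and 9.83% of all genes. Their median was -0.40 on the log2 scale. PFKFB4, a regulator of glycolysis, fell by 1.12 ± 0.07 (SE; edgeR adjusted p = 2.10e-06), and the histone demethylase gene KDM3A by 0.59 ± 0.08 (1.57e-04). The mitophagy gene BNIP3 fell by 0.44 ± 0.05 (adjusted p = 1.06e-04) and the glucose transporter gene SLC2A1 by 0.40 ± 0.05 (1.65e-04). The 1 that rose was PGK1 (0.21 ± 0.05), named after its value was seen. PGK1 had a larger value with doxycycline in the GFP line (0.37 ± 0.05; edgeR adjusted p = 0.127, or 0.0143 with the replicate block over 12 libraries, 0.292 with it in the 6 GFP libraries alone, 1.17e-06 with no filter and 1.76e-06 with DESeq2), and the difference between the lines was -0.17 ± 0.07 (adjusted p = 0.211). The PGK1 call on induction was lost without uninduced replicate 1 (0.19, adjusted p = 0.0569) or induced replicate 1 (0.18, 0.0573). The difference between the lines in the doxycycline effect passed for 6 of the 13, all lower, against 3.28% of all genes. Glycolytic members of this list overlap with genes examined earlier in these data, so the count is no independent evidence.

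Among 11 tested PPAR genes, 1 rose and 2 fell, against 9.83% and 9.28% of all genes, and the list median was -0.10. PLIN2, which coats lipid droplets and is a PPAR target like ANGPTL4, fell by 0.92 ± 0.11 on the log2 scale (SE; edgeR adjusted p = 1.85e-04). PPARA, which encodes a receptor of the family, rose by 0.30 ± 0.04 (adjusted p = 4.29e-04). HADHA, an enzyme of fatty acid oxidation, fell by 0.14 ± 0.03 (adjusted p = 0.0135), a call lost without induced replicate 2 (-0.11, adjusted p = 0.0612) and with no filter (0.0673).

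Among secreted modulators of VEGF, 5 of 11 rose and none fell, against 9.83% and 9.28% of all genes. TIMP3, a metalloproteinase inhibitor that can block KDR, rose by 0.64 ± 0.07 on the log2 scale (SE; edgeR adjusted p = 4.19e-05) and was already higher without doxycycline, by 1.39 ± 0.07. THBS1 (thrombospondin-1, an inhibitor of angiogenesis) rose by 0.52 ± 0.06 (adjusted p = 6.74e-05). CCN2 rose by 0.60 ± 0.09 (adjusted p = 7.08e-04) and CCN1 by 0.43 ± 0.06 (2.07e-04), both matrix proteins and established YAP targets. ADAMTS1, a protease that can bind VEGFA, was the fifth (0.27 ± 0.05) and is named after its value was seen. The list median was 0.05, with 5 of the 11 values below 0. Because the list holds established YAP targets and was chosen with earlier results known, the count of 5 is no independent evidence. For each of the 5 that rose, the doxycycline effect also differed from that in the GFP line, against 6.88% of all genes called there and 3.60% as higher. These 5 had been picked by their rise on induction, which is part of this difference, so the shares over all genes are not a like measure. That difference was lost for ADAMTS1 in 9 of 20 alternatives.

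**Figure D4:**
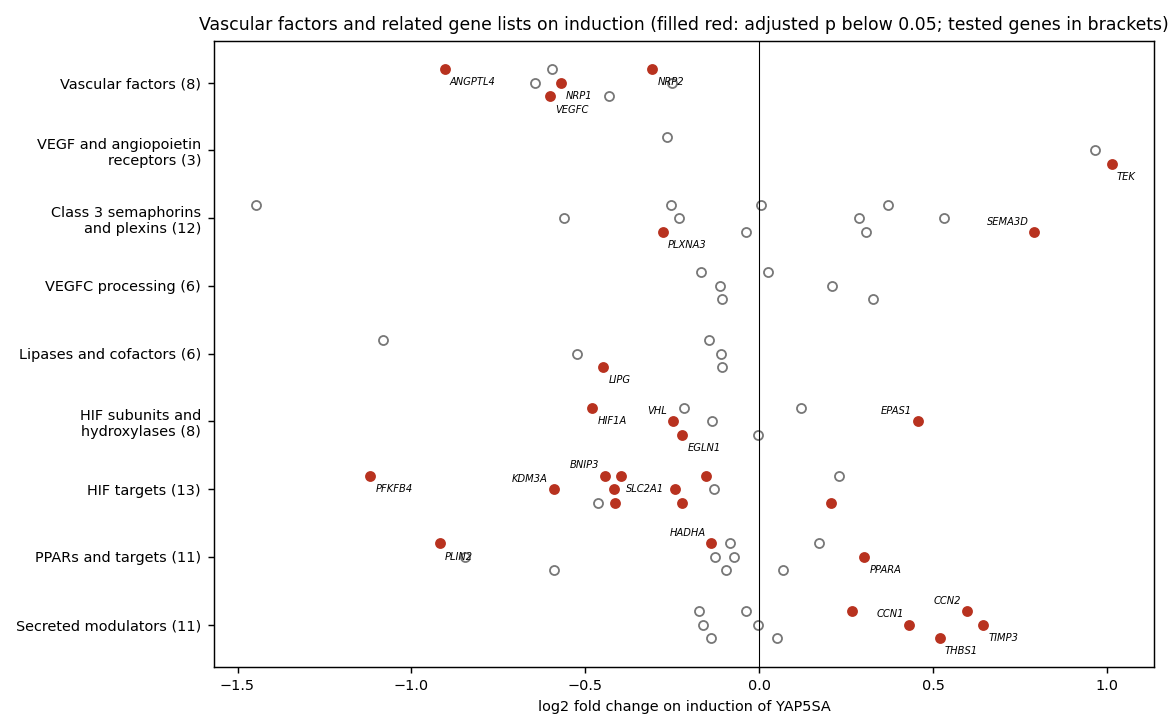
Log2 fold change with induction of the 8 tested vascular factors (top row) and of each tested gene of the receptor, semaphorin and plexin, VEGFC processing, lipase, oxygen-sensing, hypoxia target, PPAR and modulator lists; 1 point per gene, filled red where it passed, with height within a row used only to separate points. Hypoxia targets lie mostly below 0 (9 of 13 fell), and the modulators that passed lie above 0 (5 of 11).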

How the data were processed

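The authors deposited 1 table of read counts per gene, in whole numbers, for 12 libraries. The submitters' processing notes name DRAGEN, Subread, featureCounts, DESeq2 and limma, and GRCh38 (hg38). What each did, its version and how strand was counted stand in no label or header used here. Positions and exon lengths came from GENCODE 29.

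Counts were fitted with edgeR 4.0.16 (robust quasi-likelihood, TMM, filterByExpr, R 4.3.3) over 17470 genes and all 12 libraries (8 residual degrees of freedom). On simulated data with changes in the induced group, this model recovered 53.7% of log2 changes of 0.5 on induction, 77.3% of 1 and 95.5% of 2. For the difference of effects it recovered 40.3%, 69.7% and 87.9%. Unchanged genes called were 13 on induction and 14 in that difference, of 17239 tested. The simulated libraries had no pattern by replicate number. The comparisons were doxycycline in each line, the difference of those effects, and the YAP5SA line against the GFP line at each doxycycline state. RPKM divides CPM by the joined exon length.

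The genes and lists were chosen with earlier results of these data known. All 10 genes are named; of each list, up to 4 genes that passed on induction or in the difference of effects, by smallest p. Marker lists are given as counts of calls and summed levels, and 1 marker is not reported here.

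Between the GFP groups, deviations of same-numbered libraries correlated at 0.327, 0.414 and 0.407, so the labels' replicate numbers pair those libraries; the fit printed has no block, and a blocked fit is an alternative. The other comparisons did not reach 0.1 for every number. Alternatives were other scalings, filters and tests (limma 3.58.1, DESeq2 1.42.0), library sizes without YAP1, groups compared alone, a replicate block and each library left out.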

Additional observations from a re-analysis of the deposited data

Results flagged for a closer look

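For 15 genes named above, the response to doxycycline was not the same in the YAP5SA and GFP lines by a test of the difference itself (edgeR interaction, adjusted p below 0.05 over all genes). ANGPTL4 was the only one among the 10 vascular factors, with -0.85 on the log2 scale.

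The differences were -1.18 for PFKFB4, -0.59 for KDM3A, -0.42 for BNIP3 and -0.38 for SLC2A1, all hypoxia targets. They were -0.49 for HIF1A and 0.43 for EPAS1. The lipid droplet gene PLIN2 had -0.90 and PPARA 0.36. PLXNA3 had -0.36. The VEGF modulators had 0.60 (CCN2), 0.53 (TIMP3), 0.50 (THBS1), 0.41 (CCN1) and 0.27 (ADAMTS1). The CCN2 difference was lost with no filter on low counts (0.60, adjusted p = 0.0755) and the ADAMTS1 difference in 9 of 20 alternatives, while the other 13 held in all.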

How the results depend on the processing

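For the 8 tested genes in 5 comparisons, 40 results were recomputed under 651 alternatives, of which 558 kept direction and side of the threshold, 28 lost a call, 26 gained one and 39 changed sign. All 39 sign changes were in results that were not called. The number of the 8 called in the difference of doxycycline effects was 1, and 2 with upper-quartile scaling, 3 with DESeq2 and 5 with a replicate block. Between the lines without doxycycline it was 2, and 1 with no filter on low counts, while DESeq2 added NRP1 (adjusted p = 0.00750). Leaving out a library gave 3 to 5 calls on induction (main 4), 0 to 0 in the GFP line, 1 to 2 in the difference, 1 to 2 between the lines without and 3 to 6 with doxycycline. With the replicate block over 12 libraries the counts were 6 on induction, 0 in the GFP line, 5 in the difference, 3 and 7 between the lines; every number correlated best with its own only between the GFP groups. On induction the block added VEGFA (-0.42 ± 0.04, adjusted p = 4.50e-07) and VEGFB (-0.25 ± 0.06, 0.00509). In the difference it added VEGFA (-0.39, adjusted p = 1.07e-04), VEGFC (-0.58, 0.00110), NRP1 (-0.52, 0.0398) and NRP2 (-0.32, 0.00690). Between the lines it added NRP1 without doxycycline (-0.38, adjusted p = 0.0291), and with it VEGFA (-0.40, 1.98e-07) and VEGFB (-0.28, 0.00119), and it lost ANGPTL4 (-0.31, 0.0713). The block changed no call of the 8 in the GFP line, where the numbers pair the libraries. The cause of these shifts was not tested. Without uninduced replicate 3 (4 reads), ANGPT1 passed the filter through the uninduced libraries left, with 11 and 12 reads. Its call on induction in that fit follows from this selection and is no evidence of a fall.

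Sign changes were of values near 0. For VEGFA between the lines without doxycycline they were -0.00339 with RLE scaling, -0.0188 with upper-quartile scaling, -0.00633 with no filter, -0.00243 with a stricter filter, -0.00462 with the block, -0.00338 with DESeq2 and -0.00567 with limma-voom. VEGFC there had 0.00196 with the block and 0.00336 with limma-voom, and VEGFB in the GFP line had 0.000533 with limma-voom. Leaving out a library gave, without doxycycline between the lines, -0.19 to 0.17 for VEGFA, -0.12 to 0.043 for VEGFB and -0.085 to 0.053 for VEGFC. In the GFP line it gave -0.19 to 0.14 for VEGFA, -0.097 to 0.048 for VEGFB, -0.12 to 0.039 for VEGFC, -0.22 to 0.068 for PGF, -0.15 to 0.022 for NRP1, -0.017 to 0.033 for NRP2, -0.17 to 0.069 for ANGPTL2 and -0.12 to 0.021 for ANGPTL4. PGF could not be tested under the stricter filter, and depth limits PGF, ANGPT1 and ANGPT2.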

Other observations

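The replicate number accounted for 98.2% of the variation of VEGFA within groups on the log2 CPM scale, against a median of 28.5% over all 17470 genes, of which 18 were at or above VEGFA. The mean deviations of VEGFA from its group means were 0.02 for number 1, 0.29 for number 2 and -0.31 for number 3. The share was 82.5% for VEGFB, 71.7% for NRP2, 67.7% for VEGFC, 49.7% for NRP1, 32.2% for PGF, 29.5% for ANGPTL2 and 9.30% for ANGPTL4. VEGFA and VEGFB were highest in number 2 (mean deviation 0.14 for VEGFB) and lowest in number 3 (-0.14), and VEGFC and NRP2 were the other way round (-0.13 and -0.11 in number 2, 0.14 and 0.10 in number 3). ANGPTL4 had the smallest share of the 8 genes and mean deviations of -0.02, -0.03 and 0.05. Log2 ratios between libraries of the same number, induced over uninduced, were -0.39, -0.54 and -0.32 for VEGFA, against -0.03, -0.02 and -0.03 with doxycycline in the GFP line. For VEGFB they were -0.34, -0.19 and -0.24, against -0.15, 0.02 and 0.14.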
